A study of Homo sapiens with 6 samples.

Results

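Resistant 18, the RNA library of a fludarabine-resistant pool of HG3 cells numbered 18, was compared with the libraries of resistant pools 17 and 28, gene by gene. HG3 is an established lymphoblastoid B cell line derived from chronic lymphocytic leukaemia, and fludarabine is a purine nucleoside analogue that stops DNA synthesis after it has been phosphorylated in the cell. The series came from a transposon mutagenesis study of resistance to this drug. It holds 6 libraries of total RNA: 3 labelled control and 3 labelled treated, with 1 pool each of the numbers 17, 18 and 28 in either group, and the design text names them parental and fludarabine-resistant HG3 cells. Drug dose, time and whether the drug was present when RNA was taken were not stated in the labels. All 6 libraries share the HG3 background, and how many clones a pool holds was not stated either.

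Values were FPKM, that is, fragments scaled to transcript length and to the mapped fragments of the library, as the authors deposited them. A gene was compared when at least 1 of the 3 resistant libraries had an FPKM of at least 1. Symbols of small RNAs were left out, because the length of so short a transcript inflates its FPKM. This left 11466 of 23619 symbols. Members of the group described here are genes for which log2(FPKM + 1) in resistant 18 was at least 1 above, or at least 1 below, both other resistant libraries. They were therefore chosen by their measured values. There were 543 higher genes (4.74% of those compared) and 524 lower genes (4.57%). Differences below are resistant 18 minus the mean of resistant 17 and 28 on the log2(FPKM + 1) scale, which understates the change of genes with low FPKM. With 1 library on one side no p-value can be given, and the 3 controls serve as the range. More or fewer cells of one kind in a pool and more or less RNA per cell cannot be told apart in such bulk libraries.

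Cells that pass from rest or G1 into S phase switch on genes for DNA replication, many of them through E2F factors bound to their promoters. Genes for mitosis follow later, and many of their promoters carry CCAAT boxes, bound by NF-Y, and a cell cycle homology region (CHR) with the core TTTGAA, through which the DREAM complex silences them in resting cells. Ribosomal protein genes belong to another programme, which tracks growth and the supply of amino acids. All 3 groups stood apart in resistant 18, the cell cycle genes on the higher side and the ribosomal protein genes on the lower side.

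The promoters of 4 cell cycle genes that were higher in resistant 18 are printed to show these elements. Each is the stretch of 150 bases just before the gene's start in RefSeq on GRCh38.p14. Capitals mark TTTGAA and CCAAT, on either strand, in the mitotic genes HMMR and CDC20, and the E2F sequences TTTGGCGC or TTTCCCGC, on either strand, in the replication genes RFC3 and POLA1.
HMMR, chr5:163460482-163460631, plus strand: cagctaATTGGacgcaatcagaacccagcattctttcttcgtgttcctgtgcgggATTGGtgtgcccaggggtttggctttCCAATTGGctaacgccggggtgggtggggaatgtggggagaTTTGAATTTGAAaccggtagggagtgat
CDC20, chr1:43358831-43358980, plus strand: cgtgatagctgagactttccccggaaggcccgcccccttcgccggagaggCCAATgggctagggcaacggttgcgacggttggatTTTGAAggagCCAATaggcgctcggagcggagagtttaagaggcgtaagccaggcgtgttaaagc
RFC3, chr13:33817999-33818148, plus strand: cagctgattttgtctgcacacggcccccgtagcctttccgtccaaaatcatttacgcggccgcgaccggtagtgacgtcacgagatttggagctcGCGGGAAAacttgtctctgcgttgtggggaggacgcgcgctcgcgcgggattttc
POLA1, chrX:24693768-24693917, plus strand: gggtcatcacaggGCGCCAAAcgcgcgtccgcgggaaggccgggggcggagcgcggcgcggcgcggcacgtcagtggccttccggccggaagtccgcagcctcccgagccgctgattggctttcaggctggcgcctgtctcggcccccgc
HMMR, a spindle protein gene, had 11.6, 11.6 and 10.6 FPKM in controls 17, 18 and 28, 15.3 in resistant 17 and 11.3 in resistant 28, against 39.3 in resistant 18. CDC20, the activator of the anaphase-promoting complex, had 24.2 to 30.8 FPKM in controls, 23.9 and 17.6 in resistant 17 and 28, and 58.4 in resistant 18. RFC3, a subunit of the clamp loader that places PCNA on DNA, had 10.9 and 11.2 FPKM in resistant 17 and 28 and 16.7 to 17.1 in controls, against 44.6 in resistant 18. POLA1, the catalytic subunit of the primase-bound DNA polymerase alpha, had 7.38, 5.28 and 18.3 FPKM in resistant 17, 28 and 18. For each of these genes the value in resistant 18 was the highest of the 6.

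These letters were searched on both strands of windows from 250 bases before to 50 after the gene start. TTTGAA was present in 17 of the 27 G2 and mitosis genes that had such a window (63.0%), against 15.4% of all 27305 windows in the table and 10.1% of the 9145 windows of compared genes. CCAAT was present in 19 of these 27 (70.4%, against 35.7% of all windows and 37.8% of those of compared genes). One or both of the E2F sequences TTTGGCGC and TTTCCCGC were present in 16 of 35 S phase genes (45.7%, against 2.31% and 3.94%). Over all genes higher in resistant 18 that had a window, TTTGAA was found in 19.6%, CCAAT in 47.0% and an E2F sequence in 7.83%. Over the genes lower in resistant 18 the same shares were 6.19%, 35.1% and 3.87%. The lists hold well-known targets of these factors, so the shares describe the members and do not show binding. The higher genes include the called members of the S phase and mitosis lists. Their transcripts also had a lower median GC content (43.6%) than those of the lower genes (57.2%), and the part of this in the shares was not tested.

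Resistant 18 lay farther from every other library than those lay from each other. It differed by at least 1 for 11.8% to 14.5% of the compared genes from each of the 5 other libraries, whereas 2 controls differed for 1.33% to 1.95% and resistant 17 and 28 for 2.90%. The 6 pairs of a control with resistant 17 or 28 gave 2.98% to 8.42%. The plot of pairs of libraries shows no overlap between pairs with resistant 18 and pairs without it. Library depth, estimated from the smallest steps between FPKM values, was 1.10 times that of control 17 in resistant 18 and 1 to 1.33 times in the others. A total of 10611 symbols reached an FPKM of 1 in resistant 18, against 10824 to 10940 elsewhere.

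**Figure D1:**
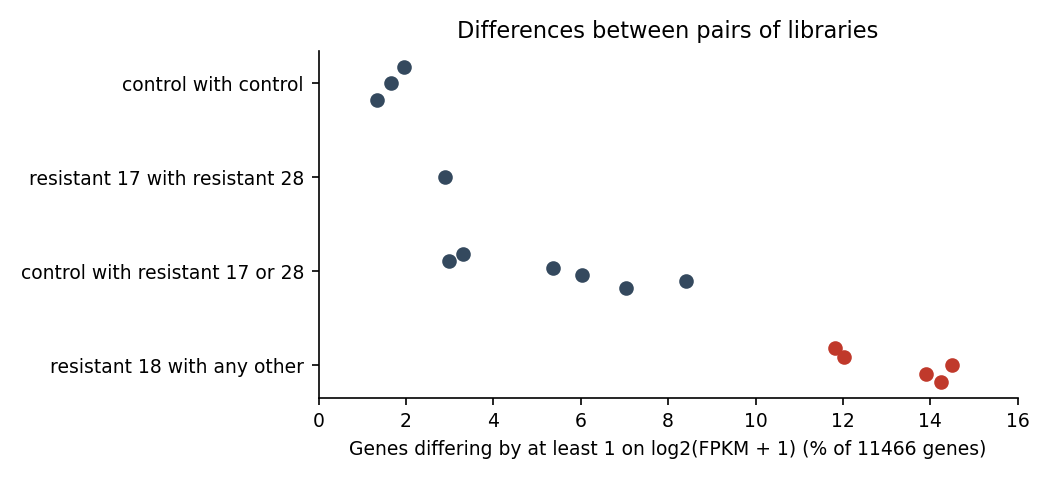
Percent of the 11466 compared genes that differed by at least 1 on log2(FPKM + 1), for each of the 15 pairs of libraries, one point a pair, grouped by kind of pair. The 5 pairs with resistant 18 sit between 11.8% and 14.5%, right of all other pairs, which end at 8.42%.

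Most of the members were also outside the controls. Of the 543 higher genes, 521 were above all 3 controls (4.54% of compared genes), 19 were inside the control range and 3 below it. Of the 524 lower genes, 479 were below all controls (4.18%), 43 were inside their range and 2 above it. Control 18, the control with the same pool number, was at least 1 away from the mean of the other controls in the same direction for 12 of the higher and 20 of the lower genes. By any margin it lay in the same direction for 338 of the higher genes (62.2%) and 253 of the lower genes (48.3%). Over all compared genes the median of control 18 minus the mean of the other controls was 0.015. A difference of at least 2 from both other resistant libraries was reached by 35 higher and 85 lower genes. The split of 543 to 524 depends on scaling: with each library centred on its own median, which lowers every difference by 0.14 and the median over all compared genes from 0.08 to -0.06, it was 352 higher (32.6%) and 729 lower (67.4%), against 50.9% and 49.1%. List medians given below as 0.07 or 0.00 turn negative with it. At the threshold, MYOF and SKA1 were the last genes counted as higher and CCNE2 and EVC the first not counted. OTUD1 and VMO1 were the last counted as lower, and NRXN3 and LEMD2 the first left out. SKA1, for example, had 22.9 FPKM in resistant 18 and 10.9 and 6.64 in resistant 17 and 28, and CCNE2, the cyclin E2 gene, had 5.45 against 2.23 and 1.33.

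**Figure D2:**
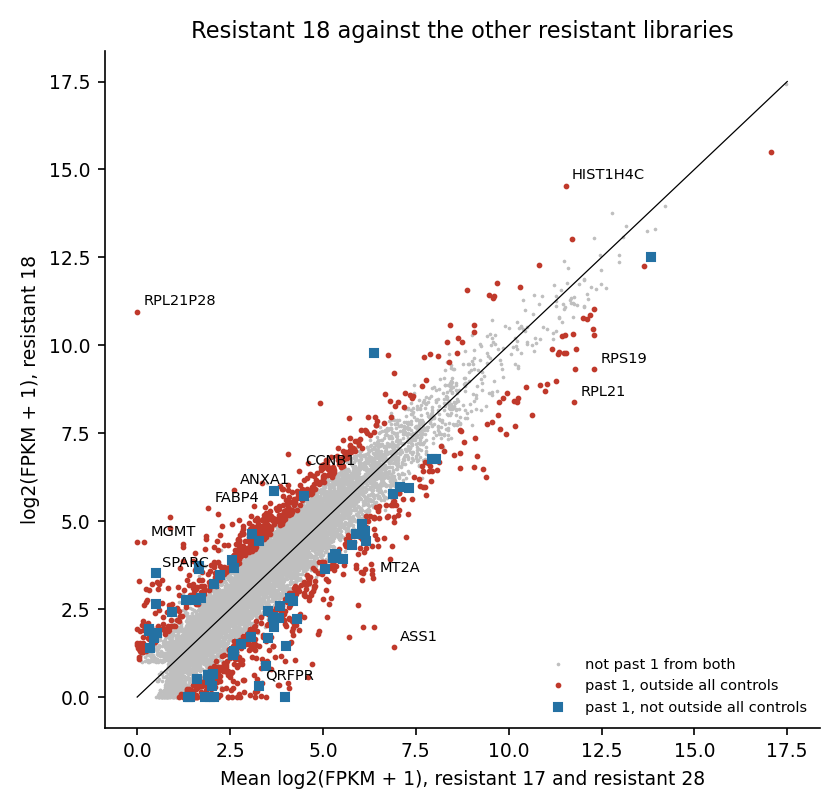
Each point is a compared gene, with the mean log2(FPKM + 1) of resistant 17 and 28 on the horizontal axis and that of resistant 18 on the vertical axis; the line marks equal values. Red points are the 521 higher and 479 lower genes that were also outside all 3 controls, blue squares the other called genes, and grey points the rest.

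The 12 higher genes farthest from all 5 other libraries included several that were nearly silent elsewhere. MGMT, the enzyme that removes alkyl groups from guanine in DNA, had 20.2 FPKM in resistant 18. It had 0.235 and 0.0470 in resistant 17 and 28, and 1.66, 0.179 and 1.33 in controls 17, 18 and 28. The 2 other genes of direct reversal of DNA damage compared here were not called. ALKBH2 had 67.6 FPKM in resistant 18, just above the 49.1 to 66.0 of the other libraries, and ALKBH3 had 23.6, below their 41.7 to 46.1. CYBB, the catalytic subunit of the phagocyte NADPH oxidase, which B cells also make, had 8.92 FPKM in resistant 18 and at most 0.523 in the others. FABP4, a fatty acid binding protein, had 40.6 FPKM against 1.30 to 3.46 in the others. ANXA1, the annexin A1 gene, had 58.0 FPKM against 1.86 to 7.75.

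Among the other genes of this kind, KLHL13, an adaptor of a cullin ubiquitin ligase that acts in mitosis, had 26.8 FPKM in resistant 18 and 0.819 to 3.15 elsewhere. MAPK10, the JNK3 kinase gene, had 32.0 FPKM against 1.36 to 1.88 in controls and 5.97 and 5.52 in resistant 17 and 28, so these 2 were above the controls as well. HLA-DOB, a modulator of peptide loading on MHC class II, had 28.3 FPKM against 1.85 to 5.54. COL4A6, a basement membrane collagen chain, had 13.7 FPKM against 0.110 to 2.37. LGR4, a receptor for R-spondins, had 5.76 FPKM against at most 0.447, PLEKHA5 had 5.53 against at most 0.313, and RGS21, of the family that dampens G protein signalling, had 5.13 against at most 0.236. The rule that chose these genes fixes that resistant 18 does not overlap the other 5 libraries.

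The largest value of this kind belongs to a pair of near-identical sequences. RPL21P28, a processed copy of the ribosomal protein gene RPL21, had 1993 FPKM in resistant 18 and 0 to 0.0254 in the others. RPL21 itself had 335 FPKM in resistant 18 and 3328, 3167, 2229, 3522 and 3467 in controls 17, 18 and 28 and resistant 17 and 28. Reads that fit both copies can be assigned to either, so both values are uncertain.

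**Figure D3:**
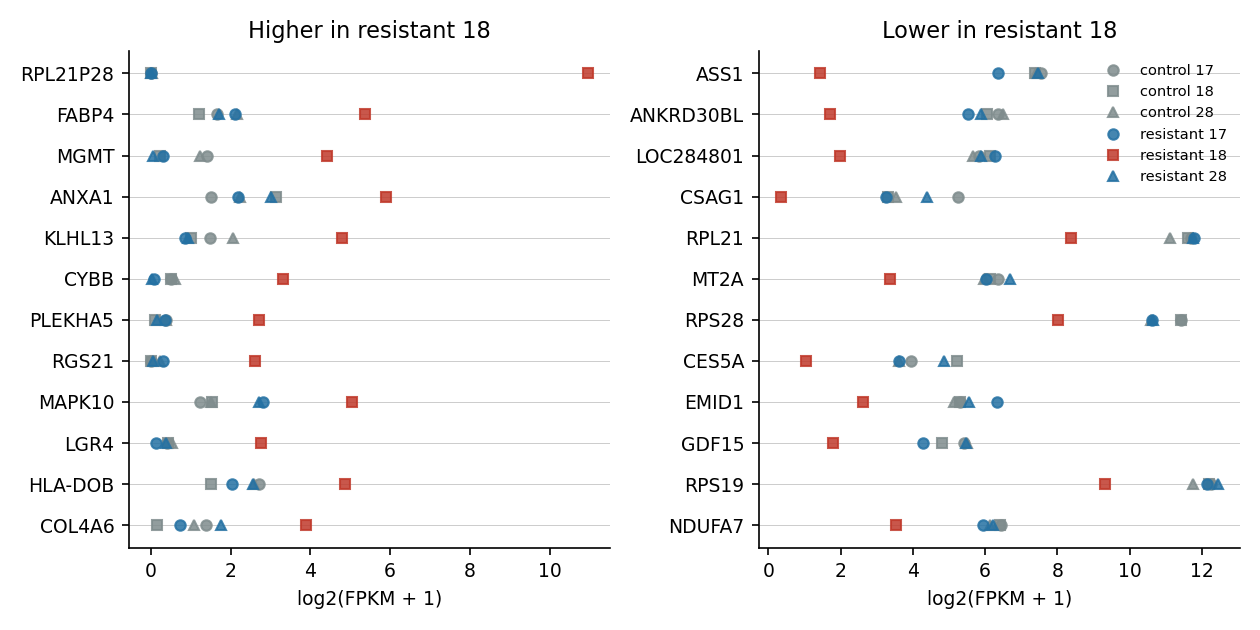
log2(FPKM + 1) in each of the 6 libraries for the 12 genes higher (left) and the 12 lower (right) in resistant 18 that lay farthest from the nearest of the 5 other libraries. Grey marks are controls, blue marks resistant 17 and 28, red squares resistant 18. The genes were chosen for lying outside the 5 other libraries, so the lack of overlap was fixed in advance.

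On the lower side the largest difference was that of ASS1, argininosuccinate synthase, which makes the precursor of arginine from citrulline. ASS1 had 187, 167 and 168 FPKM in controls 17, 18 and 28, 80.9 in resistant 17, 175 in resistant 28 and 1.67 in resistant 18, a difference of -5.49. ASL, the next enzyme of the same pathway, had 52.6 FPKM in resistant 18 and 35.2 to 51.9 elsewhere. The metal-binding gene MT2A had 9.38 FPKM in resistant 18 against 61.2 to 103 in the others. Of 5 compared metallothionein and ferritin genes, a list chosen after values were seen, 3 were lower: MT2A, MT1X and FTH1. FTH1, the heavy chain of the iron store ferritin, had 89.9 FPKM against 406 to 791, while the light chain gene FTL had 1497 FPKM against 1145 to 1899 and lay inside the range.

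GDF15, a stress-induced cytokine of the TGF-beta family, had 2.47 FPKM in resistant 18 against 18.5 to 44.1. CSAG1, a cancer-testis antigen gene, had 0.263 FPKM against 8.48 to 37.3. EMID1, an extracellular matrix gene, had 5.19 FPKM against 34.4 to 79.0, and CES5A, a carboxylesterase gene, had 1.07 against 11.2 to 36.1. ANKRD30BL had 2.28 FPKM against 44.7 to 88.9, and LOC284801 had 2.97 against 50.1 to 76.8. NDUFA7, a subunit of respiratory complex I, had 10.5 FPKM against 60.1 to 85.1. The ribosomal protein genes RPS19, with 639 FPKM against 3494 to 5587, and RPS28, with 258 against 1532 to 2777, complete the 12, with RPL21.

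Some members separated resistant 18 from its resistant counterparts without leaving the control range. SPARC, a secreted matrix glycoprotein gene, had 10.6 FPKM in resistant 18 and 11.2 in control 18, against 1.01 and 0.867 in controls 17 and 28 and 0.609 and 0.251 in resistant 17 and 28. Only the 2 libraries of pool 18 were high for SPARC. IGJ, the joining chain of polymeric antibodies, likewise had 56.7 FPKM in resistant 18 and 105 in control 18, against 8.86 to 26.1 in the other 4. CBLN2 and HECW2 had 11.4 and 12.4 FPKM in resistant 18, inside their control ranges of 8.11 to 13.8 and 7.47 to 14.0, while resistant 17 and 28 had 2.79 and 1.62 for CBLN2 and 3.41 and 1.30 for HECW2. CDC42BPA and GALM had 2.71 and 2.84 FPKM in resistant 18, just below all controls (lowest 3.12 and 2.96), and at most 0.411 in the other resistant libraries. For CBLN2, HECW2, CDC42BPA and GALM it was resistant 17 and 28 that lay far from the controls.

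On the lower side, resistant 17 and 28 lay above all controls for QRFPR, C1orf173 and SULF1. QRFPR, a neuropeptide receptor gene, had 12.9 and 5.85 FPKM in resistant 17 and 28 but 0.252 in resistant 18 and 0.122 to 0.672 in controls. C1orf173 had 14.8 and 6.59 FPKM in resistant 17 and 28, 0.829 in resistant 18 and 0.603 to 1.68 in controls. SULF1, a sulfatase that edits heparan sulfate, had 2.74 and 3.44 FPKM in resistant 17 and 28 against 0.236 in resistant 18. USP29 had 18.9 and 18.4 FPKM in resistant 17 and 28 and 3.62 in resistant 18, with controls spread from 2.93 to 73.6. Values listed at exactly 0 were not read as silence. H3F3A, a histone gene that every cell uses, was listed at 0 in resistant 18, control 17 and control 28, and at 2.56 to 3.26 FPKM in the others. SNAR-E was listed at 0 in resistant 18 and all controls, and INO80B-WBP1, NEDD8-MDP1 and DNAJC25-GNG10 are read-through symbols that overlap other genes, so their values are uncertain.

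Replication and mitosis genes were higher in resistant 18. The 42 S phase genes had a median difference of 1.18, against 0.08 over all compared genes: 21 were at least 1 above both other resistant libraries, 0 were below them by that much, and 39 were above all 5 other libraries by any margin. Of all compared genes 36.1% were above all 5 in this way and 25.4% were below all 5, and the counts of this kind given for lists below stand beside these shares. The helicase gene MCM4 had 59.8 FPKM in resistant 18, 15.1 and 13.4 in resistant 17 and 28 and 17.9 to 24.9 in controls. UNG, which removes uracil from DNA, had 33.1 FPKM against 8.11 to 10.6 in the other 5 libraries. Of the 6 genes of the replicative helicase, MCM2 to MCM7, 5 were called, with MCM5 just short at 236 FPKM against 114 to 142, with differences of at least 0.98. RRM1 and RRM2, the subunits of ribonucleotide reductase, which makes the deoxynucleotides of DNA, had 98.7 and 24.3 FPKM in resistant 18, against 38.2 and 25.9 for RRM1 and 9.77 and 3.75 for RRM2 in resistant 17 and 28.

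The 32 G2 and mitosis genes had a median difference of 1.18, with 14 called higher, 0 lower and 29 above all 5 others. CCNB1, the mitotic cyclin B1, had 84.6 FPKM in resistant 18, 24.3 and 15.7 in resistant 17 and 28, and 20.5 to 24.4 in controls. The kinase genes TTK and AURKA had 27.9 and 40.8 FPKM, against 6.26 to 10.1 for TTK and 11.8 to 21.5 for AURKA elsewhere. KIF20A, a motor protein gene of cytokinesis, had 20.9 FPKM against 4.45 to 9.59. The controls deviated far less: the median of each control minus the mean of the others lay between -0.14 and 0.16 for the S phase list and between -0.12 and 0.07 for the mitosis list. Set against the control of the same number, resistant 18 had an S phase median of 0.87, resistant 17 of -0.13 and resistant 28 of -0.28, and for the mitosis list they had 0.92, -0.11 and -0.43; these differences between pools were not tested.

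A few cell cycle genes, named after their values were seen, did not move with the rest. TYMS, the thymidylate synthase gene, had 19.99 FPKM in resistant 18, below 25.3 and 25.1 in resistant 17 and 28, and far below 45.2 to 73.8 in controls. The proliferation marker MKI67 had 4.83 FPKM in resistant 18, between 5.29 and 3.27 in the other resistant libraries and below 7.71 to 10.1 in controls. CDT1, a replication licensing factor gene, had 27.8 FPKM against 28.9 and 15.9 in resistant 17 and 28 and 34.6 to 41.8 in controls. PTTG1, the securin gene, had a difference of -0.35. For TYMS, MKI67 and CDT1 all 3 resistant libraries were below all 3 controls.

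**Figure D4:**
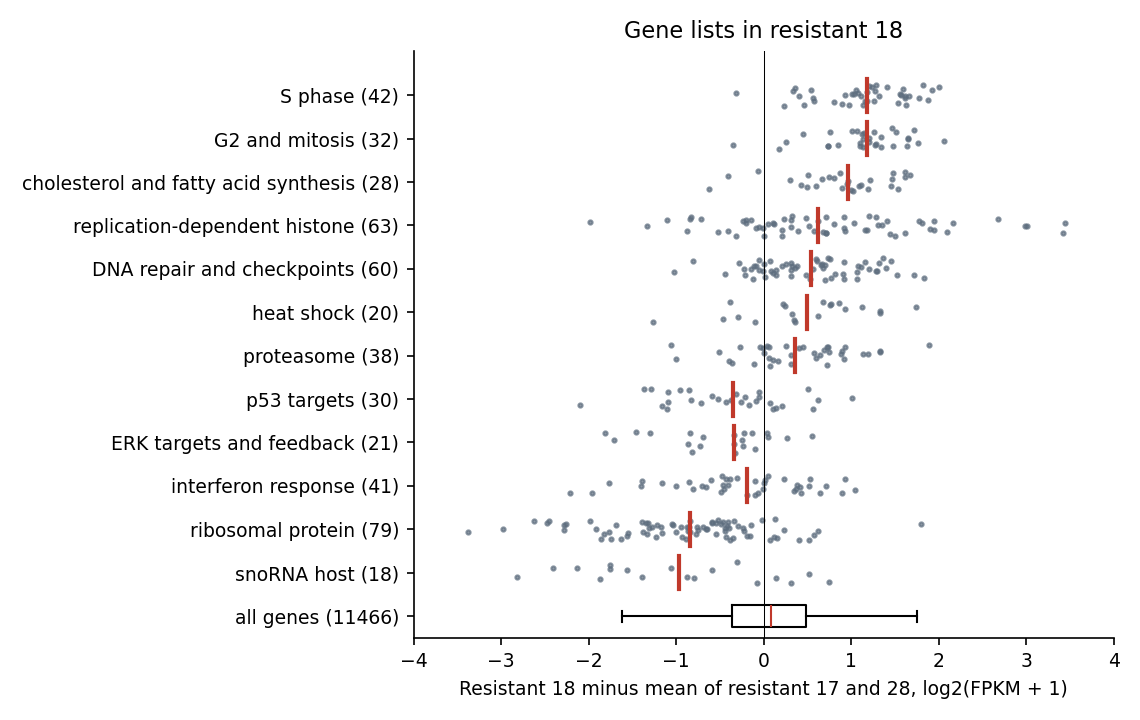
Difference of resistant 18 from the mean of resistant 17 and 28 on log2(FPKM + 1), one grey point a gene, for 12 gene lists with the number of compared genes in brackets. Red bars are list medians; the box at the bottom gives the median, quartiles and whiskers (1.5 times the interquartile range) of all 11466 genes, whose median is 0.08.

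Genes next to replication were higher in part. Of 60 DNA repair and checkpoint genes 11 were called higher and 0 lower, with a median of 0.54. CHEK1, the checkpoint kinase that answers stalled forks, had 57.9 FPKM in resistant 18 against 13.8 to 20.1 in the other 5, and FANCI, of the crosslink repair pathway, had 37.99 against 8.66 to 17.4. The exonuclease gene EXO1 had 16.4 FPKM against 4.65 to 7.97. Of 31 genes of nucleotide supply and breakdown 7 were called higher and 0 lower, with a median of 0.33. They included RRM1 and RRM2, which are also on the S phase list, and 4 of the 6 enzymes of de novo purine synthesis. These enzymes build the purine ring, and their 6 differences ran from 0.33 to 1.64. PPAT, the first of these, had 24.1 FPKM in resistant 18 against 9.77 and 5.03 in resistant 17 and 28, and PAICS had 63.9 against 26.6 and 14.9. In the list of nucleoside uptake and activation, the median was 0.07 and 2 of 19 genes were called, both lower: the nucleoside diphosphate kinase gene NME3, with 17.9 FPKM against 41.9 to 72.4, and AK4, with 0.558 against 1.35 to 6.94.

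Replication-dependent histone genes, which are expressed in S phase, differed from one another. Of 63, 16 were called higher and 2 lower, with a median of 0.62, and 24 of 63 were above all 5 others, near the share over all compared genes. The median difference from the control of the same number was -0.21 for resistant 18, 0.10 for resistant 17 and -0.56 for resistant 28. With that control subtracted, the median difference of resistant 18 from the other resistant libraries was 0.24, with 9 genes called higher and 5 lower. HIST1H4C had 23797 FPKM in resistant 18, 4388 and 2003 in resistant 17 and 28, and 4105 to 6209 in controls. HIST1H2AB had 853 FPKM against 62.2 to 291, and HIST1H4L had 328 against 22.7 to 127. HIST1H1B, a linker histone gene, had 880 FPKM in resistant 18, inside the control range of 470 to 967, while resistant 17 and 28 had 24.0 and 271. On these transcripts, which are short, mostly lack a poly(A) tail and resemble one another, controls also varied: the median of control 18 minus the other controls was 0.46.

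Ribosomal protein genes were lower in resistant 18. The 79 compared genes had a median difference of -0.84, 29 were called lower, 1 higher, and 63 were below all 5 other libraries. RPL36A had 176 FPKM in resistant 18 against 1076 and 897 in resistant 17 and 28 and 467 to 828 in controls. The median was -0.94 over 47 genes of the large subunit, 19 of them called lower, and -0.59 over 32 of the small subunit, 10 of them called lower. The controls also differed from each other here, with medians from -0.35 to 0.24, and the median difference from the control of the same number was -1.01 for resistant 18, -0.16 for resistant 17 and 0.10 for resistant 28. Without RPL21 the median was -0.81.

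Hosts of small nucleolar RNAs, whose introns carry guides for ribosomal RNA modification, were lower too, with a median of -0.97, 8 of 18 called lower and 0 higher. SNHG12 had 10.4 FPKM in resistant 18 against 50.7 to 87.5 in the others, and SNHG9 had 2.43 against 14.6 to 18.2. ZFAS1 had 197 FPKM against 710 to 907, and EPB41L4A-AS1 had 15.7 against 59.9 to 77.7; both lie antisense to other genes, and whether the counting used strand is not given. Other genes whose messages begin with the same 5' terminal oligopyrimidine tract, mostly translation factors, had a median of -0.14 over 16 of them. That list was made after values were seen. Of all 11466 compared genes, 4350 were below both other resistant libraries and 5574 above both. On the list, 8 were below both, 6 were above both, and 1 was called, on the lower side. That gene was FAU, which encodes the ribosomal protein RPS30 fused to a ubiquitin-like protein, with 481 FPKM against 1566 to 2407, whereas the elongation factor gene EEF1A1 had 10765 FPKM against 8478 to 12019 and EEF2 had 2346 against 3219 to 3968.

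Genes of lipid synthesis formed another higher group. Of 28 genes of cholesterol and fatty acid synthesis 10 were called higher and 0 lower, with a median of 0.96, and 23 were above all 5 others. INSIG1, which holds the SREBP activator in the endoplasmic reticulum and is itself an SREBP target, had 70.8 FPKM in resistant 18 against 19.2 to 32.4 in the other 5 libraries. FDFT1 and CYP51A1, enzymes of the sterol branch, had 113 and 77.3 FPKM, against 35.2 to 53.04 and 25.4 to 34.2. SREBF2, the gene of the sterol-sensing activator, had 49.3 FPKM, next to 48.5 in resistant 28 and 55.0 in resistant 17.

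Some protein folding and degradation genes were called higher. Of 20 heat shock genes 4 were called higher and 0 lower (median 0.49), with HSPA8, the constitutive HSP70, at 1092 FPKM against 283 to 659, and HSP90AB1 at 1083 against 383 to 544. Of 38 proteasome genes 5 were called higher and 0 lower (median 0.36), with PSMB3 at 868 FPKM against 221 to 337. With trends over GC content and transcript length removed, 1 heat shock gene was called higher (median 0.36), and 3 proteasome genes were called higher and 2 lower (median 0.33). Lists of respiratory chain and mitochondrial ribosomal protein genes had medians of -0.07 and 0.00, with members on both sides: NDUFA13 had 75.6 FPKM against 377 to 740, and NDUFA12 had 396 against 123 to 282.

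In the lists of p53, ATF4 and ERK targets more genes were called lower than higher. Of 30 p53 targets 5 were called lower and 0 higher, with a median of -0.35. BBC3, the pro-apoptotic gene also called PUMA, had 22.2 FPKM in resistant 18, 113 and 85.4 in resistant 17 and 28 and 64.4 to 69.7 in controls. BAX, which opens the mitochondrial membrane, had 63.6 FPKM against 114 to 147, and CDKN1A, the cell cycle inhibitor p21, had 192 against 321 to 433. MDM2, another p53 target, had 39.9 FPKM and lay above the 26.2 to 37.5 of the others. Of 22 genes of the ATF4 response 3 were called lower (median -0.33), among them CEBPB with 5.86 FPKM against 22.8 to 33.2. Of 21 ERK target and feedback genes 4 were called lower (median -0.34): ETV5 had 0.863 FPKM against 4.50 to 6.04, and the AP-1 gene JUNB had 39.3 against 82.0 to 152.

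The interferon list of 41 genes had 6 called lower and 1 higher, with a median of -0.20; by any margin 13 were above all 5 other libraries and 9 below them. IFI44L had 1.72 FPKM in resistant 18, 12.6 and 10.7 in resistant 17 and 28 and 2.77 to 7.19 in controls. IRF7, the master regulator of type I interferon, had 17.8 FPKM against 64.3 and 62.0 in resistant 17 and 28 and 31.5 to 44.8 in controls. For IFI44L and IRF7 resistant 17 and 28 were above all controls and resistant 18 below all of them. The 1 higher gene was GBP1. Against the control of the same number, resistant 18 had a list median of 0.06, resistant 17 of 0.50 and resistant 28 of 0.60.

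Genes followed in the study or lower in every resistant pool did not set resistant 18 apart. DCK, the kinase that activates fludarabine, had 11.3 FPKM in resistant 18, between 12.1 and 7.20 in resistant 17 and 28. BRAF had 5.98, between 7.49 and 5.86, and BMP2K had 10.8, between 10.9 and 9.18. BIN1, with 4.21 FPKM, and HBE1, with 3.23, also lay between the other resistant values.

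Markers of B cells were measured in all 6 libraries. The 6 B cell markers summed to 804 FPKM in resistant 18, inside the control range of 678 to 991, and 0 of them was called. MS4A1, which encodes CD20, had 196 FPKM, above the 92.4 to 164 of the others, and CD79A, a chain of the B cell receptor, had 212, below their 322 to 394. The defining markers CD3D, CD3E, CD3G and CD2 of T cells and CD14, LYZ, FCGR3A and S100A8 of myeloid cells were under 1 FPKM in every library. LCK, a kinase gene on the T cell list, had 24.0 FPKM in resistant 18 and 20.4 to 62.2 in the others. The 6 myeloid markers summed to 8.06 FPKM in resistant 18 and 2.33 to 3.29 in controls, of which ITGAM, an integrin chain, gave 6.05. Of the B lineage list 1 of 28 genes was called, BTK, with 59.9 FPKM against 20.4 to 29.7. Over all compared genes 4.74% were called higher. With the control of the same number subtracted, 0 B lineage genes were called higher and 3 lower. With trends over GC content and transcript length removed, 0 were called. Of the plasma cell list 3 of 18 were called, all higher, among them TNFRSF17, the BCMA gene, with 95.1 FPKM against 27.3 to 56.0. IGJ, which lay inside the control range, was another. On this list 8 genes were above both other resistant libraries and 8 below both. With the control of the same number subtracted, 0 were called higher and 0 lower.

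The difference of resistant 18 moved with the GC content of transcripts. Over the 10778 genes matched to a transcript, the Spearman correlation of the difference with GC content was -0.40, against -0.09 for control 18 minus the other controls and -0.01 for resistant 17 minus 28. It is taken across genes of the same libraries and carries no p. With genes cut into 5 equal classes of GC content, from the lowest class to the highest, the median difference went from 0.36 to -0.34, and the share of genes called higher from 7.47% to 1.16%. The transcripts of higher genes had a median GC content of 43.6%, those of lower genes 57.2% and those of genes not called 48.3%. The difference also moved with transcript length, at a Spearman correlation of 0.17, against -0.21 for control 18 minus the other controls and -0.04 for resistant 17 minus 28. In the shortest of 5 equal classes of length, the median difference was -0.14 and 9.92% of genes were called lower, against 1.90% in the longest. Median length was 1956 bases for lower genes, 3272 for higher genes and 3360 for genes not called. The part of GC content or length in the gene differences was not tested. With trends over GC content and transcript length removed from each library, 337 genes were higher and 399 lower, of which 280 and 313 were among those called before.

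The medians of the main lists kept their sign with the trends removed, with fewer genes called in some: 16 in place of 21 for S phase and 9 in place of 14 for mitosis. The median was 1.01 for S phase, 0.88 for mitosis, -0.85 for ribosomal proteins, 1.01 for lipid synthesis, 0.60 for histones and -0.32 for p53 targets, against 0.00 over all matched genes. For DNA repair genes it was 0.29, with 4 called, and for nucleotide supply 0.20, with 2 called. For splicing factors it moved from 0.33 to 0.08, and for histone and chromatin regulators from 0.27 to 0.04. Length and GC content were taken from each gene's longest protein-coding transcript, 2359 bases for RPS19, which need not be the form expressed. Only 2 of 18 hosts of small nucleolar RNAs were matched to a transcript, so the trends could not be removed for the rest of that list.

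Chromosome 17 stood out once the trends were removed. Its 672 matched genes had a median 0.32 above that of all genes, and 466 of them (69.3%) were above it. The medians of the 22 other chromosomes lay between -0.13 and 0.04. The same value was -0.01 for control 18 minus the other controls and -0.02 for resistant 17 minus 28, and for resistant 18 minus control 18 it was 0.31. Without removal of the trends the chromosome 17 median was 0.21 above that of all genes, 58 of 702 genes (8.26%) were called higher and 18 (2.56%) lower. Gene order came from RefSeq.

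The higher genes of chromosome 17 were spread along it. Medians were taken over windows of 41 neighbouring genes, and a region was a run of at least 15 windows at least 0.3 from 0. All 8 regions found with the trends removed lay on this chromosome and were higher. The longest ran from CYB5D1 to SARM1 (87 genes, median 0.41, 65 of them above 0) and from ACLY to CDC27 (72 genes, 0.41, 60 above 0), and the one with the largest median from SLC38A10 to RAC3 (23 genes, 0.65). In the region from PLSCR3 to LSMD1 the windows met the rule but the 19 genes themselves had a median of 0.02. MRPS7, a mitochondrial ribosomal protein gene at the edge of another region, had 90.4 FPKM in resistant 18 against 20.9 to 32.2 elsewhere. As deposited, 37 regions were found on many chromosomes, lower ones on chromosomes 16, 19 and 22 among them. Leaving out chromosome 17 gave 485 higher and 506 lower genes.

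**Figure D5:**
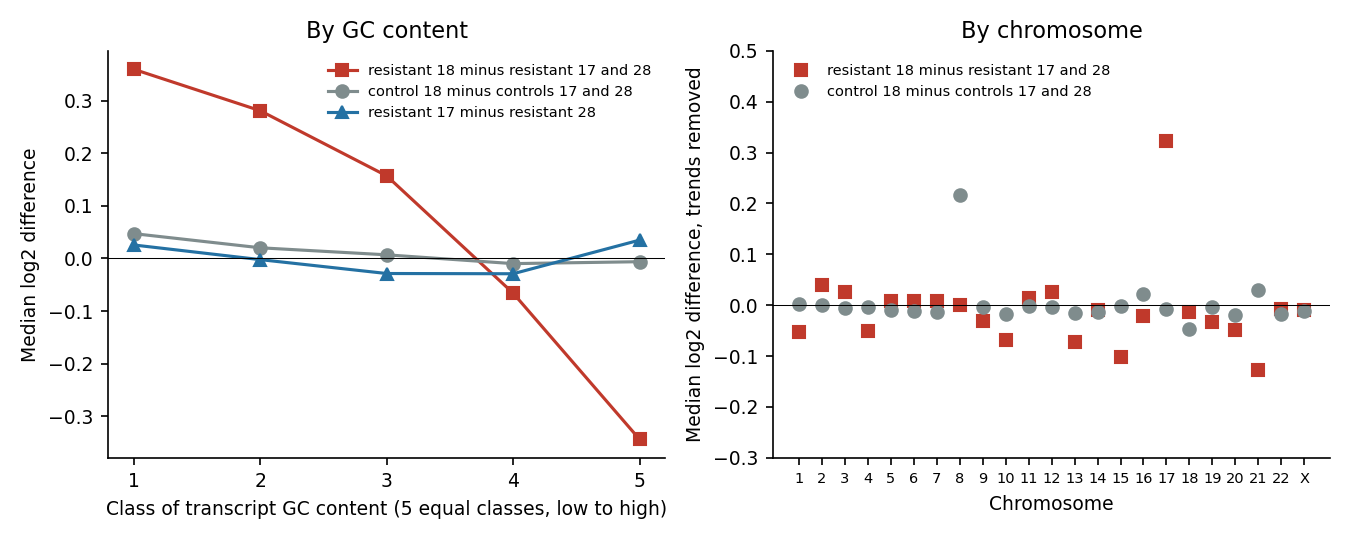
Left, median log2(FPKM + 1) difference by class of transcript GC content (5 classes of equal size) for resistant 18 minus resistant 17 and 28 (red), control 18 minus controls 17 and 28 (grey) and resistant 17 minus resistant 28 (blue); the red line runs from 0.36 down to -0.34. Right, median difference by chromosome with GC and length trends removed, relative to all genes, where chromosome 17 is at 0.32 in resistant 18.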

How the data were processed

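The authors deposited FPKM per gene symbol, per the file headers, in 1 file for each library. Per the submitters' processing notes, the build was hg19 and the tools were DESeq2, HTSeq 0.6.1, Cufflinks 2.2.1 and TopHat2 2.0.4, with no role given. No other processing is stated. Of 23619 symbols, 1720 small RNA symbols were left out; the rest of the filter, the call rule and the pseudocount of 1 are in the results. Members and lists were chosen with earlier results of these data known. Named genes were the 12 per direction farthest from all 5 other libraries, the 8 per direction not beyond the controls, up to 4 called members of each list (else 2), those beside the threshold, DCK, BRAF, BMP2K, BIN1 and HBE1, and the ends of regions. Genes named for comparison (TYMS, MKI67, CDT1, PTTG1, MCM genes, ASL, FTH1, FTL, ALKBH2, ALKBH3, EEF1A1, FAU, EEF2, LCK, CDKN1A, MDM2, SREBF2) were chosen after values were seen, and some genes within these rules are not reported here.

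GC content and length came from the longest protein-coding GENCODE v29 transcript of each gene (GRCh38), matched by symbol for 94.0% of compared genes. Gene order and promoters came from RefSeq (97.7% matched). Trends were removed by a loess surface of span 0.5 in R 4.3.3; the rest used Python 3.11.15. Counts of fragments were not used, so depth is relative, from ratios of low values (57% to 61% whole within 0.02 on the log2 scale). The labels do not say whether libraries with the same number came from the same starting cells.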

Additional observations from a re-analysis of the deposited data

Results flagged for a closer look

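The S phase and the G2 and mitosis lists moved one way from control to resistant in pool 18 and the other way in the other pools: 0.868 against -0.13 in pool 17 and -0.28 in pool 28 for S phase, and 0.917 against -0.11 and -0.43 for G2 and mitosis. The pool 17 values lay inside the range of each control minus the mean of the others. That range was -0.14 to 0.16 for S phase and -0.12 to 0.07 for G2 and mitosis. The difference between pools was not tested.

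Outside the comparison, 34 of the 471 small RNA symbols with an FPKM of at least 1 in a resistant library were above all 5 other libraries in resistant 18, and at least 1 above both resistant ones, while 44 were below all 5 and at least 1 below both. Without the controls, 49 were at least 1 above both other resistant libraries and 116 at least 1 below both. Over the 11466 compared genes the same rules gave 4.54% above and 4.18% below all 5, and 4.74% and 4.57% without the controls. Some of the small RNA symbols counted were listed at 0 in resistant 18, such as RNY4, or at 0 in all 5 others, such as SNORD77. The FPKM of small RNA symbols rests on very short transcripts.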

How the results depend on the processing

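The 4 counts of genes moved with the size of the pseudocount and of the difference asked for. With a pseudocount of 0.1, 917 genes were lower and 818 of them below all 5 others. With 5, 259 were higher and 231 lower, 253 and 211 of them outside all 5, and the medians of the S phase and mitosis lists were 0.92 and 0.97. With 1.5-fold, 1746 were higher and 1358 lower, 1640 and 1192 of them outside all 5. With a difference of 2, 35 and 85 were, 34 and 80 of them outside all 5. With medians centred, 352 were higher, 334 above all 5, and the mitosis median was 1.04. Under quantile normalization that median was 1.05 and that of ribosomal proteins -0.49. With GC and length trends removed, 337 were higher, 320 above all 5, and the S phase and mitosis medians were 1.01 and 0.88.

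Leaving out resistant replicate 17 or 28, so that 1 library is left to compare with, gave 753 to 827 higher genes, 807 to 840 lower, 702 to 785 above and 700 to 730 below the 4 other libraries left, and a mitosis median of 0.93 to 1.46. The call rule asks for a distance from both libraries, so that fewer libraries give more calls. With the replicate block, the control of the same number subtracted, 523 genes were higher and 591 lower, 381 and 373 of them as in the comparison without it, and the list medians were 1.09, 1.10 and -1.04. IGJ reversed there, to -0.12. Deviations of libraries with the same number correlated across genes at 0.13, 0.06 and 0.02 for pools 17, 18 and 28. No control correlated best with the resistant library of its own number. Controls 17, 18 and 28 correlated best with resistant 28, 17 and 18, at 0.14, 0.08 and 0.12. Of the resistant libraries, only resistant 17 correlated best with the control of its number. Leaving out 1 control gave 523 to 529 above and 480 to 501 below the others. Every called gene named by the rules that could be compared kept its side under pseudocounts, filters, scalings and the removal of trends. For pseudocounts, filters and centred medians this was fixed in advance. These genes were chosen for a difference of at least 1, no pseudocount or filter can change the side, and centring lowers each difference by 0.14. Fewer kept their call: with trends removed, 280 of all 543 higher and 313 of all 524 lower genes were called again.

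The alternatives without chromosome 17 and without RPL21 were added after seeing the data. FPKM gives no counting error, so low genes are the least certain.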

Other observations

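With GC and length trends removed, control 18 had a median 0.22 above that of all genes over the 373 matched genes of chromosome 8, relative to controls 17 and 28. Resistant 18 minus resistant 17 and 28 had a median of 0.00 there, and resistant 18 minus control 18 one of -0.23. This was noticed after values were seen.

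The tubulin gene TUBB, chosen in the same way, had 817 FPKM in resistant 18, 282 and 155 in resistant 17 and 28 and 343 to 406 in controls. The replication-dependent histone gene HIST1H3C had 8.86 FPKM in resistant 18, 20.4 in resistant 17, 0.776 in resistant 28 and 1006 to 1385 in controls, so that resistant 18 lay between the other resistant libraries.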
